A study of Homo sapiens with 12 samples.

Results

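The genes described here are the relatives in name and domain of RBM3, the gene silenced in the study: every protein-coding autosomal or X-linked gene whose symbol is RBM followed by a number, together with RBMX, RBMX2 and RBMXL1, and without RBM3 itself. Of the 63677 gene rows of the deposited table, 52181 matched the reference list of gene names, and the rule could reach only these. It gave 39 genes, and 31 of them had enough counts to be tested. The RNA came from PANC-1 and MIA PaCa-2, both established lines from human pancreatic carcinomas. Each line received either negative control siRNA or 2 RBM3 siRNAs given together. The labels name both total and cytoplasmic RNA as the material, and a pair of media without the line that each was used for, so whether the medium differed between the lines is not known here. The siRNA was at 25 nM in all groups, the transfection with lipofectamine lasted 4.5 h after 72 h of culture, and cells were collected the next day. The 4 groups held 3 libraries each, numbered as in the labels: MIA PaCa-2 control 1, 2 and 4, MIA PaCa-2 siRNA 1, 2 and 5, PANC-1 control 1, 2 and 4, and PANC-1 siRNA 1, 2 and 3. Whether libraries of a group came from separate cultures is not in the labels, so the p-values reflect the spread among these libraries alone, and that spread may be technical. The study asked which genes depend on RBM3. For the family, the comparison asks whether other members changed when RBM3 was lowered and whether siRNAs against RBM3 also lowered its relatives.

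RBM stands for RNA-binding motif. Most proteins of this name carry at least 1 RNA recognition motif (RRM), a fold that holds single-stranded RNA on a sheet whose middle strands carry the conserved RNP1 and RNP2 stretches. RBM3 and its nearest relative CIRBP, which has no RBM name and so is no member here, are cold-inducible proteins with a single RRM and a glycine-rich tail. RBMX, the X-linked hnRNP G, has a similar layout at its start. The other members have varied roles: splicing (RBM5, RBM10, RBM17, RBM22, RBM25, RBM39, RBM48), RNA decay (RBM7, RBM26, RBM27), m6A methylation (RBM15), ribosome assembly (RBM19, RBM28) and tissue-restricted control of splicing or stability (RBM20, RBM24, RBM38, RBM47).

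An siRNA cuts its target through a stretch of about the length of a guide strand. The RBM3 coding sequence (471 bases, GENCODE 29, GRCh38) was therefore compared in windows of 19 bases with the longest protein-coding mRNA of each of 19217 genes. The untranslated parts of the RBM3 mRNA were left out, and effects through shorter matches were not assessed. The mismatch counts therefore do not measure the specificity of the siRNAs. The siRNAs' own sequences were not used here, so any window could be or not be a target. None of the 39 RBM genes, and none of the other genes, held a window identical to the RBM3 coding sequence. The windows nearest to RBM3 are shown for CIRBP, for the 2 members closest to RBM3, and for RBMX, RBM24, RBM38 and RBMX2, because they show how far apart the sequences are where they are most alike. The CIRBP window lies near the end of the RBM3 coding sequence. Sequences run 5′ to 3′ on the mRNA strand, positions count from the first base of the RBM3 coding sequence, and capitals mark the bases that differ within each pair.
RBM3, bases 451 to 469: tacagagacaAttatgaca
CIRBP: tacagagacaGttatgaca
RBM3, bases 141 to 159: gggttttgGTttcatcacc
RBM19: gggttttgCAttcatcacc
RBM3, bases 142 to 160: ggttTtggtttcatcacCt
RBM23: ggttAtggtttcatcacGt
RBM3, bases 14 to 32: AaggaaagctcttcGtGgg
RBMX and RBMXL1: CaggaaagctcttcAtTgg
RBM3, bases 19 to 37: aagCtcttcgtGggAgggc
RBM24: aagAtcttcgtCggGgggc
RBM3, bases 19 to 37: aagCtcttcgtgggAggGc
RBM38: aagAtcttcgtgggCggCc
RBM3, bases 20 to 38: AgCtcttcGtgggagggct
RBMX2: GgAtcttcCtgggagggct

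CIRBP was 1 of 10 genes with a window of 1 mismatch, which is 0.052% of the genes compared, and no RBM gene was among them. RBM19 and RBM23 came to 2 mismatches, a number that 1.88% of all genes reached or undercut. A further 12 members came to 3 mismatches, which put 14 of 39 members at 3 or fewer, beside 19.2% of all genes. The remaining members came to 4 mismatches (20 members) or 5 (5 members). Members had longer mRNAs (median 4093 bases) than all genes (median 2961 bases), and a longer mRNA offers more windows. The longest run identical to RBM3 had a median of 10 bases both for members and for all genes.

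**Figure D1:**
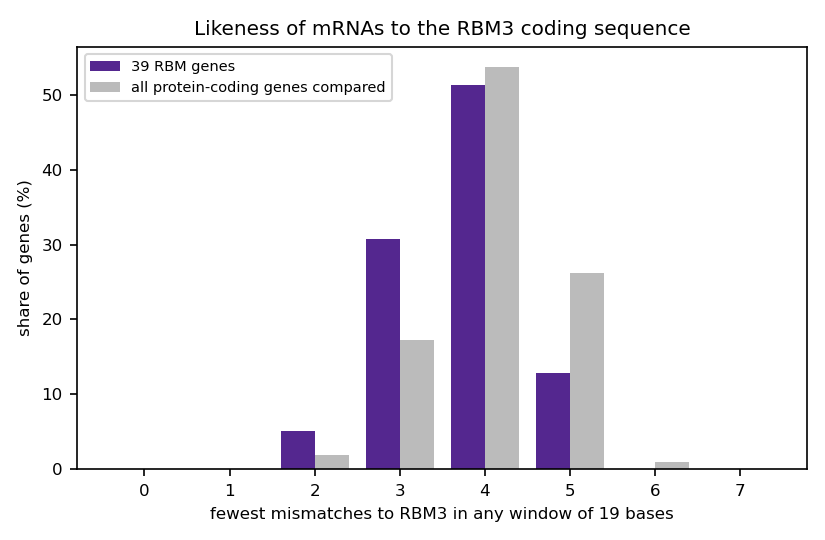
Share of genes (y axis, percent) by the fewest mismatches to the RBM3 coding sequence in any window of 19 bases (x axis), for the 39 RBM genes and for all 19217 genes compared. The members peak at 4 mismatches, as all genes do, and no gene of either set stands at 0.

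The siRNA target was measured first. In TMM-scaled CPM, RBM3 was at 249.8, 277 and 207 in the MIA PaCa-2 control libraries and at 44.4, 37.4 and 61.9 CPM in the siRNA libraries, which was 19.6% of the control mean. In PANC-1 it was at 567, 426 and 436 CPM with control siRNA and at 96.5, 195 and 83.0 CPM with RBM3 siRNA, or 26.2%. The groups did not overlap in either line. A two-sided exact permutation test gave 0.1 in both, its lowest possible value for groups of 3. By edgeR the log2 fold change was -2.35 (95% interval -3.02 to -1.68, adjusted p = 0.0426) in MIA PaCa-2. In PANC-1 it was -1.93 (-2.59 to -1.28, adjusted p = 0.516). DESeq2 called RBM3 in both lines (adjusted p = 5.287e-09 and 1.746e-05), and limma-voom called it in MIA PaCa-2 (0.0367) and not in PANC-1 (0.0832). Other edgeR settings also moved the call: in PANC-1 RBM3 passed with no filter (9.029e-06) and with PANC-1 control 1 and siRNA 2 set aside (0.029), and in MIA PaCa-2 it missed with median-of-ratios factors (0.0543), with a filter of 1 CPM in 6 libraries (0.0505) and with the replicate number as a block (0.252). With single libraries left out, the edgeR adjusted p ran from 0.0012 to 0.548 (MIA PaCa-2) and from 0.00515 to 1.0 (PANC-1), and the log2 fold change stayed at or under -2.20 and -1.72. The MIA PaCa-2 call held without PANC-1 siRNA 2 or 3 and was lost without any other single library, and RBM3 passed in PANC-1 without PANC-1 siRNA 2. Total counts per library ran from 14217185 to 39652502. KRT8, KRT18 and KRT19, keratins of carcinoma cells, were at 291 CPM or more in every library, while EPCAM, CDH1 and KRT7 were at or under 0.833 CPM in MIA PaCa-2. Of the mesenchymal markers, VIM was at 3349 to 6524 CPM in all libraries, COL1A2 at 899 to 1814 CPM in MIA PaCa-2, COL1A1 at 61.8 to 232 CPM in PANC-1, and DCN and PDGFRB at or under 1.38 CPM throughout. The leukocyte genes PTPRC, CD3E and CD68 were at or under 2.53 CPM, and of the endothelial genes PECAM1 was at 0, VWF at or under 0.476 CPM and CDH5 at or under 7.57 CPM.

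The libraries that touch the family's values are described before them. PANC-1 siRNA 3 held transcripts that are otherwise found in MIA PaCa-2: COL1A2 at 441 CPM, ALDH1A1 at 682 CPM and UCA1 at 69.8 CPM, where the other 5 PANC-1 libraries were at or under 2.14 CPM. In MIA PaCa-2 they stood at 899 to 1814, 1137 to 1475 and 85.9 to 157 CPM. This library was also the lowest of PANC-1 for FOXA2 at 42.7 CPM (others 63.4 to 82.2), EPCAM at 13.6 CPM (23.2 to 30.6) and COL1A1 at 61.8 CPM (119 to 232). KRT7 and PDGFRB were lowest there too, while KRT8, KRT18, KRT19, VIM and CDH1 lay within the range of the others. The origin of this pattern was not tested. PANC-1 control 1 and PANC-1 siRNA 2 deviated together from their group means, with a correlation of 0.704 across 11839 genes that are not independent replicates. Other pairs also deviated together, MIA PaCa-2 control 2 with siRNA 5 (0.593) and PANC-1 control 4 with siRNA 1 (0.563). Values without PANC-1 siRNA 3 or a library of the first pair stand beside the results that turn on them.

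Levels between genes are compared per length, as RPKM (CPM per kilobase of merged exons in GENCODE 29, whose build differs from that of the counts). RBM42 had the highest mean of the members by this measure, at 57.8 RPKM over the 12 libraries and between 37.2 and 80.8 RPKM, beside 59.9 RPKM for RBM3. RBMX followed at 41.0 RPKM (25.7 to 70.2) and RBM10, a splicing repressor, at 32.2 RPKM (23.7 to 46.9). The ranges of these 3 members overlap, so their order holds for the means alone. The order also depends on the merged exon length, which was 2206 bases for RBM42, 5882 for RBMX and 11936 for RBM39. Their longest protein-coding mRNAs had 1680, 2148 and 2831 bases. Levels per mRNA length were not computed, and they could rank these genes otherwise. RBM38 at 22.0, RBM39 at 21.1, RBM22 at 18.1 and RBMX2 at 17.2 RPKM came next, again with ranges that overlap.

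The least abundant tested members were RBM34 at 0.211, RBM44 at 0.126 and RBM7 at 0.0321 RPKM. RBM7, which brings RNA to the nuclear exosome, rested on few reads, and its CPM lay between 0 and 0.524 in all libraries. In the annotation used, 48.5% of the exon bases of RBM34 and 66.8% of those of RBM4 lay in no other gene, and RBM27 had 54.6%. Reads of a neighbour could therefore enter their counts, or reads of their own in shared exons could be left uncounted. The direction was not tested, so the low level of RBM34 may be too low or too high. The strand setting is not given in the sources used here.

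The 8 members left untested had few or no counts. RBM8A, RBM12 and RBM15B were listed at 0 in all 12 libraries, and RBM14 and RBMXL1 at 1 read in 1 library each. RBM8A is part of the exon junction complex, which cells need in general, so a listing at 0 was not read as absence of these transcripts. Whether reads of these genes lie under other rows was not tested. RBM46 was at or under 0.0631 CPM. RBM20, the cardiac splicing factor, was at or under 0.464 CPM, and RBM11 at 0.124 to 0.230 CPM in PANC-1 and at or under 0.0238 CPM in MIA PaCa-2.

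**Figure D2:**
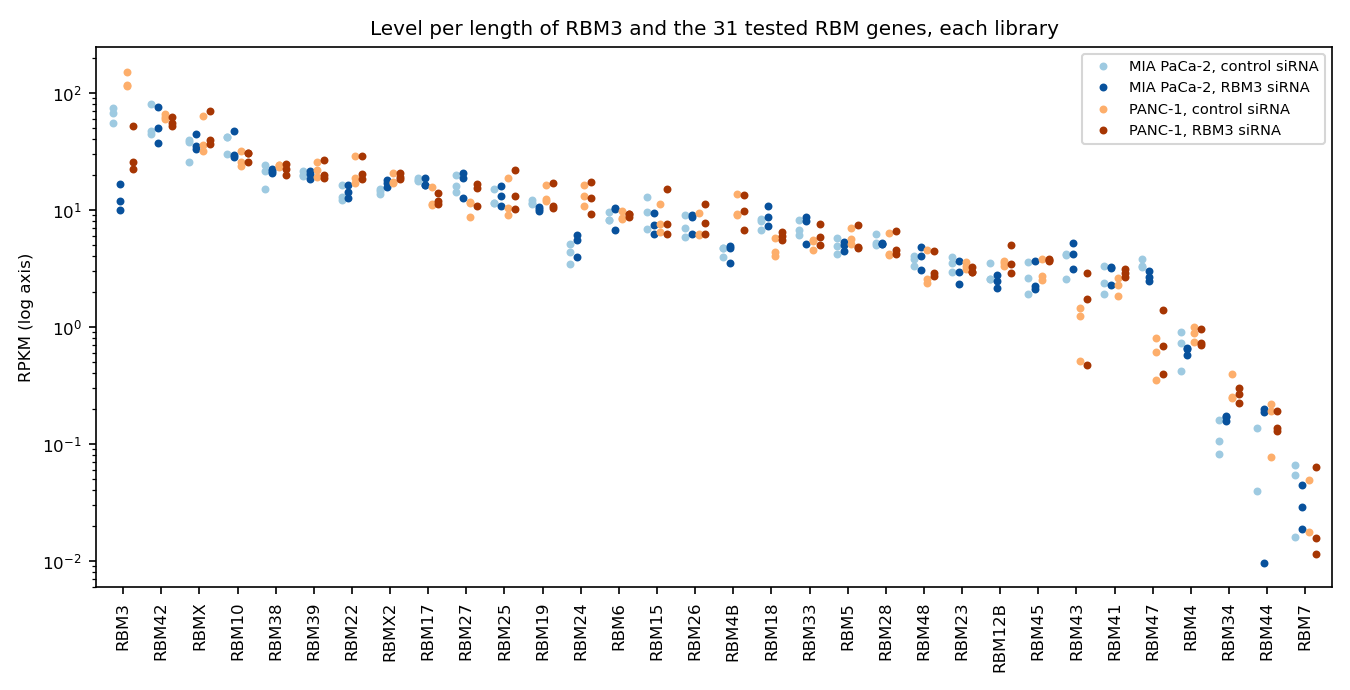
Level per length (RPKM, log axis) of RBM3 and the 31 tested RBM genes, ordered by their mean over all libraries, with 1 point per library and colours for line and siRNA (points at 0 are not drawn). RBM3 falls with its siRNA in both lines, while the siRNA and control points of the other genes mostly lie over each other. RBM17, RBM18, RBM22, RBM24, RBM34, RBM4B and RBM47 separate by line in all libraries.

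With RBM3 siRNA, no tested RBM gene rose or fell past the threshold in either line. edgeR called 0 of 31 members in MIA PaCa-2, where it called 0.0112% of all 17862 genes tested, and 0 of 31 in PANC-1, where it called 0.0% of all genes. At an unadjusted p under 0.05 it also found 0 of 31 members in both lines, while 2.94% (MIA PaCa-2) and 4.12% (PANC-1) of all genes reached it. DESeq2 and limma-voom likewise gave 0 members in both lines, adjusted and unadjusted. In MIA PaCa-2, DESeq2 gave no adjusted p for RBM7, RBM34 and RBM44. Genes without an adjusted p count as not called, here and in the shares of all genes. After adjustment DESeq2 called 0.118% (MIA PaCa-2) and 0.0168% (PANC-1) of all genes, and without adjustment 2.91% and 3.86%. For limma-voom these shares were 0.0056% and 0.0%, and 2.83% and 1.77%. These comparisons call few genes of any kind, and 0 of 31 is close to what that background gives.

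The estimates bound how large a change could have gone unseen. In MIA PaCa-2 the 95% interval lay within a 2-fold change either way for 25 of 31 members, beside 57.2% of all genes, and in PANC-1 for 27 of 31, beside 58.6%. The 6 members with wider intervals in MIA PaCa-2 were RBM7, RBM15, RBM34, RBM43, RBM44 and RBM47, and the 4 in PANC-1 were RBM7, RBM43, RBM44 and RBM47. The median log2 fold change of the members was 0.05 in MIA PaCa-2 (all genes: -0.00) and 0.07 in PANC-1 (all genes: 0.03). The members' values ran from -0.66 for RBM7 to 1.28 for RBM44 in MIA PaCa-2 and from -0.19 for RBM34 to 0.69 for RBM43 in PANC-1. A log2 fold change above 0 was found for 16 of 31 members in MIA PaCa-2 (48.6% of all genes) and for 19 of 31 in PANC-1 (54.8%). The PANC-1 median was -0.15 without PANC-1 siRNA 2 and 0.22 without PANC-1 control 1, and in MIA PaCa-2 leaving out single libraries moved it between -0.03 and 0.06, so its sign rests on single libraries in both lines.

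**Figure D3:**
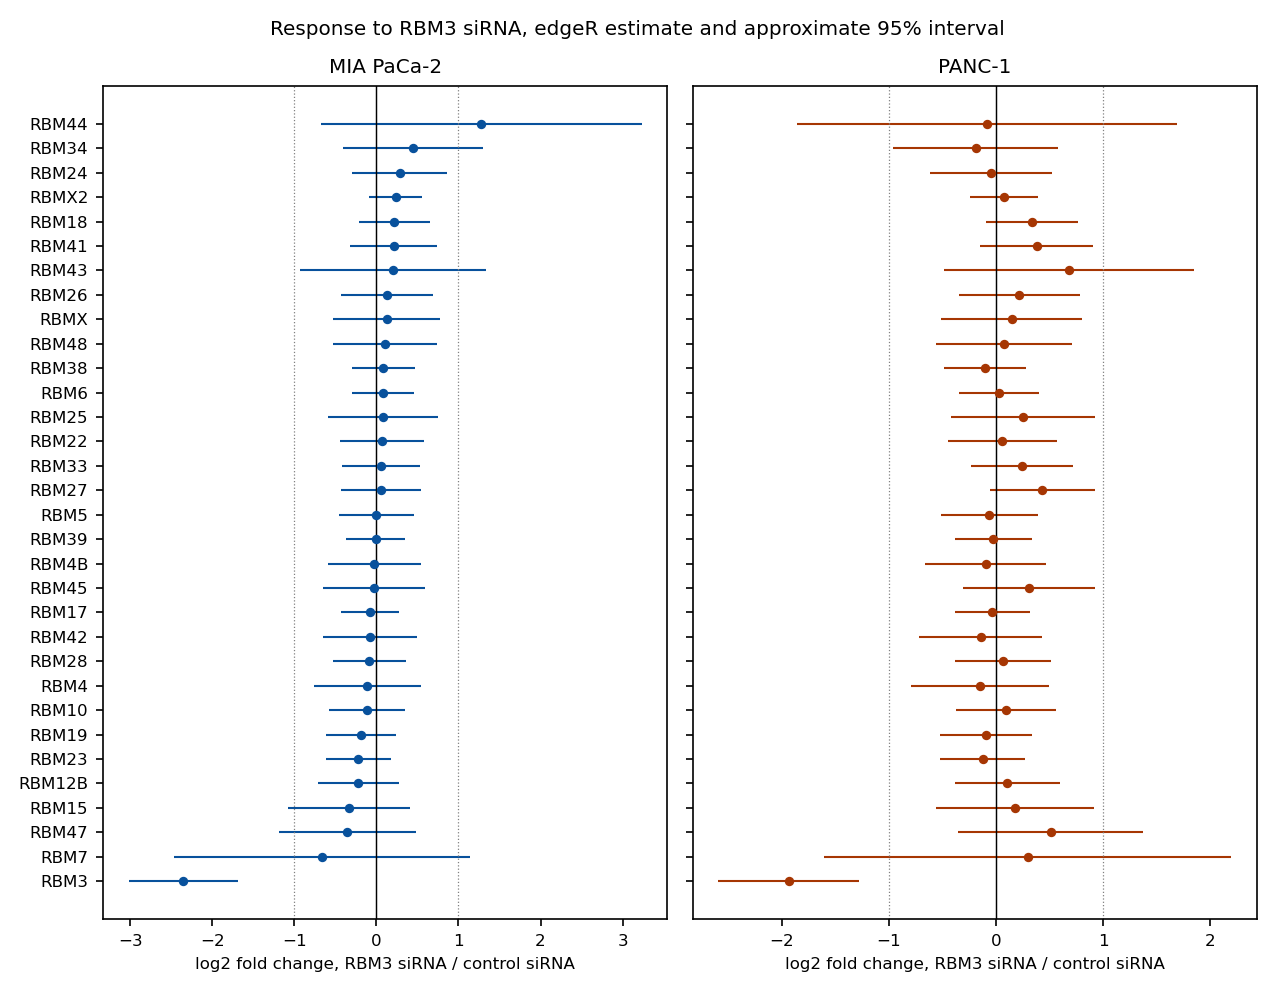
edgeR log2 fold change (x axis, RBM3 siRNA over control siRNA) with its approximate 95% interval for RBM3 and the 31 tested RBM genes in MIA PaCa-2 (left) and PANC-1 (right), in the order of the MIA PaCa-2 values; dotted lines mark a 2-fold change and the 2 panels have different x ranges. The interval of every gene but RBM3 spans 0, and the widest belong to RBM44 and RBM7.

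Among the relatives nearest to RBM3 in layout, RBMX was at 232, 222 and 151 CPM in the MIA PaCa-2 control libraries and at 206, 193 and 259 CPM in the siRNA libraries. In PANC-1 it was at 374, 189 and 211 CPM with control siRNA and at 230.5, 413 and 213 CPM with RBM3 siRNA, where the high values are control 1 and siRNA 2. The groups overlapped in both lines. The edgeR log2 fold change was 0.12 (95% interval -0.53 to 0.78, adjusted p = 1.0) in MIA PaCa-2 and 0.15 (-0.51 to 0.80, adjusted p = 0.9997) in PANC-1, and without PANC-1 siRNA 2 it was -0.23 in PANC-1. RBMXL1, a retrogene copy of RBMX, holds the same window as RBMX in the pairs printed above, and its single read allows no comparison. In MIA PaCa-2, CIRBP had 117 ± 17.9 CPM with control and 111 ± 29.5 CPM with RBM3 siRNA (SD, n = 3), and in PANC-1 53.5 ± 27.0 and 69.8 ± 18.5 CPM. Its log2 fold change was -0.08 (-0.78 to 0.62) in MIA PaCa-2 and 0.38 (-0.32 to 1.08) in PANC-1, with edgeR adjusted p-values of 1.0 and 0.9997. In PANC-1 the CIRBP value was 0.87 without control 1, 0.30 without siRNA 2 and 0.22 without siRNA 3, and in MIA PaCa-2 leaving out single libraries moved it between -0.31 and 0.09.

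The 2 members with the windows closest to RBM3 had log2 fold changes below 0 in both lines, without passing the test. The same held for 6 other members, which makes 8 of 31, beside 24.2% of all genes. In MIA PaCa-2, RBM19, a factor of ribosome assembly, was at 72.3, 65.7 and 67.4 CPM in control libraries and at 60.3, 62.2 and 57.8 CPM in siRNA libraries, so the groups did not overlap. Its log2 fold change was -0.19 (95% interval -0.62 to 0.24) in MIA PaCa-2 and -0.09 (-0.52 to 0.34) in PANC-1. RBM23, a splicing factor related to RBM39, was there at 49.4, 55.0 and 41.2 CPM with control and at 32.9, 41.2 and 51.1 CPM with RBM3 siRNA, so the groups overlapped. Its log2 fold change was -0.22 (-0.62 to 0.18) there and -0.12 (-0.52 to 0.27) in PANC-1. Of the genes with a window of 1 mismatch, 9 were tested, and 3 of them lay below 0 and 6 above 0 in each line, none with an unadjusted edgeR p under 0.05. For both RBM19 and RBM23 the edgeR adjusted p was 1.0 (MIA PaCa-2) and 0.9997 (PANC-1).

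Members were also counted by whether their libraries overlapped. In MIA PaCa-2 the siRNA libraries stood above all control libraries for RBMX2 alone (4.41% of all genes did so) and below them for RBM19 and RBM47 (3.63% of all genes). In PANC-1 they stood above for RBM41 alone (3.75% of all genes) and below for 0 members (2.77%). No member separated in both lines, in the same direction (0.515% of all genes) or in opposite ones (0.174%).

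RBMX2, a subunit of the RES complex of the activated spliceosome, had the smallest p among members in MIA PaCa-2. It was at 37.2, 35.9 and 33.9 CPM in the control libraries and at 44.5, 42.1 and 39.2 CPM in the siRNA libraries. All siRNA libraries were higher, by a log2 fold change of 0.23 (95% interval -0.09 to 0.55, edgeR adjusted p = 1.0, unadjusted 0.137). In PANC-1 its libraries overlapped, with 51.9, 43.5 and 42.3 CPM against 51.6, 47.4 and 45.9 CPM and a log2 fold change of 0.07 (-0.24 to 0.39).

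RBM44, a gene with expression known mainly from germ cells, had the widest interval. It was at 0.238, 0 and 0.820 CPM in the MIA PaCa-2 control libraries and at 1.203, 1.13 and 0.0584 CPM in the siRNA libraries. The groups overlapped and the levels are low, and the log2 fold change of 1.28 had an interval from -0.68 to 3.23. It was 2.38 without MIA PaCa-2 control 4, 0.76 without MIA PaCa-2 control 2 and 2.36 with the replicate number as a block, none with a call. RBM18, a single-RRM protein, was at 43.2, 34.7 and 41.8 CPM against 56.5, 44.9 and 37.8 CPM, with a log2 fold change of 0.22 (-0.21 to 0.65). RBM24, a splicing and stability factor of muscle, was at 11.9, 14.9 and 17.4 CPM against 21.0, 19.1 and 13.6 CPM, with a log2 fold change of 0.28 (-0.29 to 0.86). Both overlapped between groups, and the edgeR adjusted p of all 3 genes was 1.0.

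In PANC-1 the smallest p among members belonged to RBM27, a subunit of the complex that directs polyadenylated nuclear RNA to the exosome. It was at 76.9, 75.3 and 57.1 CPM with control siRNA and at 71.4, 110.1 and 101 CPM with RBM3 siRNA. The high siRNA libraries were 2 and 3, the groups overlapped, and the log2 fold change was 0.43 (95% interval -0.06 to 0.92, edgeR adjusted p = 0.9997, unadjusted 0.0783). It was 0.29 without PANC-1 siRNA 2 and 0.37 without PANC-1 siRNA 3. RBM26, its partner in that complex, had a log2 fold change of 0.22 (-0.34 to 0.78) in PANC-1 and 0.13 (-0.43 to 0.69) in MIA PaCa-2. RBM41, a protein of the minor spliceosome, was at 13.8, 15.8 and 11.1 CPM against 17.4, 19.1 and 16.4 CPM. All its siRNA libraries were higher, by a log2 fold change of 0.38 (-0.15 to 0.91, edgeR adjusted p = 0.9997), and the exact permutation p was 0.1.

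RBM18, RBM43 and RBM47 had positive log2 fold changes in PANC-1 without passing the test. RBM47, a regulator of splicing and RNA stability in epithelia, was at 2.99, 6.80 and 5.20 CPM with control siRNA and at 5.91, 3.38 and 11.9 CPM with RBM3 siRNA. RBM43 was at 2.40, 6.87 and 5.80 CPM and at 8.21, 2.23 and 13.7 CPM. RBM18 was at 29.9, 22.7 and 20.8 CPM and at 28.4, 31.0 and 33.3 CPM. The highest PANC-1 library of all 3 genes was siRNA 3, the library with MIA PaCa-2 transcripts, and all 3 genes are more abundant in MIA PaCa-2. This library was the highest of PANC-1 for these 3 of 31 members alone, beside 28.8% of all genes. RBM27 and RBM17 were also called lower in PANC-1, and their highest PANC-1 libraries were siRNA 2 and control 1. Of the members called higher in PANC-1, RBM24 and RBM4B had their lowest PANC-1 value in siRNA 3, at 31.9 and 29.1 CPM. RBM22 and RBM34 did not. The part of the MIA PaCa-2 transcripts in all these values was not tested. The log2 fold change was 0.51 (95% interval -0.35 to 1.37) for RBM47, 0.69 (-0.48 to 1.85) for RBM43 and 0.34 (-0.10 to 0.77) for RBM18, each with an edgeR adjusted p of 0.9997. Without PANC-1 siRNA 3, RBM47 was at -0.11, RBM43 at 0.04 and RBM18 at 0.27. Without PANC-1 control 1, RBM18 was at 0.50 and RBM43 at 0.34, and without PANC-1 siRNA 2 RBM43 was at 1.13.

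The responses of the 2 lines were also compared directly. edgeR called 0 of 31 members for a difference between the responses (0.0% of all genes) and found 0 at an unadjusted p under 0.05 (2.98% of all genes), and DESeq2 (0.0168% of all genes adjusted, 2.93% unadjusted) and limma-voom (0.0% and 1.6%) also found 0 members in both ways. The smallest p belonged to RBM47, with a difference of 0.86 in log2 fold change (95% interval -0.34 to 2.06, edgeR adjusted p = 0.9999, unadjusted 0.144). The libraries of RBM47 in MIA PaCa-2 were at 32.7, 28.3 and 27.9 CPM with control siRNA and at 25.8, 22.6 and 21.2 CPM with RBM3 siRNA, lower in all 3. Without PANC-1 siRNA 3 the difference was 0.24. For RBM34 it was -0.64 (-1.78 to 0.51), for RBM27 0.38 (-0.31 to 1.07), for RBMX 0.02 (-0.90 to 0.95) and for RBMX2 -0.16 (-0.61 to 0.29).

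The remaining members are summarised by role. Of the splicing factors that act at the 3′ splice site, RBM5, RBM6, RBM10, RBM17 and RBM39 had log2 fold changes between -0.12 (RBM10) and 0.08 (RBM6) in MIA PaCa-2 and between -0.06 (RBM5) and 0.10 (RBM10) in PANC-1. RBM39 had among the narrowest intervals, -0.37 to 0.35 in MIA PaCa-2 and -0.38 to 0.33 in PANC-1. RBM22, an RNA-contacting protein of the spliceosome core, was at 0.07 and 0.06, and RBM25, a factor linked to U1 snRNP, at 0.08 and 0.25. RBM48 of the minor spliceosome was at 0.10 and 0.08. RBM15, which recruits the m6A methyltransferase, was at -0.33 (95% interval -1.08 to 0.41) in MIA PaCa-2 and at 0.18 (-0.56 to 0.92) in PANC-1. RBM28, which acts in ribosome assembly, was at -0.09 and 0.07. RBM38, a p53 target that binds mRNA, was at 0.08 and -0.10, and RBM42, the member with the highest mean RPKM, at -0.08 and -0.14. RBM12B was at -0.22 and 0.11, RBM33 at 0.06 and 0.25, and RBM45 at -0.03 and 0.31. The near-identical pair RBM4 and RBM4B, between which reads could be split either way, was at -0.11 and -0.03 in MIA PaCa-2 and at -0.15 and -0.09 in PANC-1. For RBM4B, PANC-1 siRNA 3 was the lowest PANC-1 library, at 29.1 CPM.

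The complexes in which members act were examined through 9 lists of partner genes. No gene of these lists was called by edgeR in either siRNA comparison or in the difference between the lines. At an unadjusted p under 0.05 edgeR found 1 of 9 tested RBM3-like and hnRNP genes in MIA PaCa-2, HNRNPDL, at 229 ± 48.4 CPM with control and 163 ± 31.5 CPM with RBM3 siRNA (log2 fold change -0.50, adjusted p = 1.0). It found 1 of 14 spliceosome and RES genes there, CWC15, with a log2 fold change of 0.58 (adjusted p = 1.0). It found 1 of 12 tissue-restricted splicing genes there, RBFOX2, at 145 ± 13.1 and 213 ± 33.1 CPM with a log2 fold change of 0.55 (adjusted p = 0.952). In PANC-1 it found 1 gene of the 9 lists, U2SURP among 14 genes of the 3′ splice site, with a log2 fold change of 0.47 (adjusted p = 0.9997). For the exon junction, m6A writer, exosome, minor spliceosome and paraspeckle lists the count was 0 in both lines. Over the 9 lists this makes 3 of 99 tested entries in MIA PaCa-2 (3.03%) and 1 of 99 in PANC-1 (1.01%), beside 2.94% and 4.12% of all genes.

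The lines themselves differed for several members. Under control siRNA, edgeR called 9 of 31 members between PANC-1 and MIA PaCa-2, beside 50.8% of all genes, a smaller share than the background. Higher in PANC-1 were RBM24, RBM34, RBM4B and RBM22 (26.0% of all genes were called higher), and lower were RBM47, RBM43, RBM18, RBM27 and RBM17 (24.8% lower). limma-voom called the same 9 members (50.1% of all genes), and DESeq2 these and RBMX2 (52.1%). The control libraries of the lines did not overlap for 11 of 31 members, beside 61.5% of all genes. The median size of the difference, regardless of sign, was 0.36 on the log2 scale for members and 0.76 for all genes.

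RBM47 showed the largest difference among the members. The MIA PaCa-2 control libraries held 32.7, 28.3 and 27.9 CPM, and those of PANC-1 2.99, 6.80 and 5.20 CPM, a log2 fold change of -2.58 (SE 0.41, edgeR adjusted p = 0.000339). RBM43 was at 19.9, 12.04 and 19.2 CPM against 2.40, 6.87 and 5.80 CPM, a log2 fold change of -1.78 (SE 0.55, adjusted p = 0.0169). No library overlapped for either gene. In the other direction, the MIA PaCa-2 values of RBM24 were 11.9, 14.9 and 17.4 CPM and those in PANC-1 56.1, 45.6 and 37.0 CPM, a log2 fold change of 1.65 (SE 0.27, edgeR adjusted p = 0.000389). RBM4B, which takes part in alternative splicing, was at 20.4, 20.4 and 17.2 CPM against 59.4, 40.1 and 38.7 CPM, a log2 fold change of 1.26 (SE 0.27, adjusted p = 0.00197). These differences exceeded the spread of the libraries, and the exact permutation p of each of the 4 genes was 0.1.

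The other calls were smaller or at low level. RBM34 had 0.360 ± 0.127 CPM in MIA PaCa-2 and 0.929 ± 0.270 CPM in PANC-1 (SD, n = 3), with a log2 fold change of 1.30 (edgeR adjusted p = 0.0139). RBM22 was at 49.6 ± 8.07 and 78.2 ± 23.1 CPM, with a log2 fold change of 0.66 (adjusted p = 0.0345). Without PANC-1 control 1, RBM22 stood at 0.40 (edgeR adjusted p = 0.194). RBM18 (-0.71, adjusted p = 0.0109), RBM27 (-0.66, 0.0288) and RBM17 (-0.52, 0.0187) were lower in PANC-1 in all 3 libraries by edgeR. RBM25 showed the smallest difference, with 179, 135 and 136 CPM for MIA PaCa-2 and 220, 123 and 106 CPM for PANC-1, a log2 fold change of -0.00 (95% interval -0.67 to 0.67). RBMX2 was at 35.7 ± 1.67 and 45.9 ± 5.21 CPM, without overlap, with a log2 fold change of 0.36 and an edgeR adjusted p of 0.0556. RBMX, at 202 ± 44.1 and 258 ± 101 CPM, also had 0.36, with overlap, and -0.00 without PANC-1 control 1.

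Without PANC-1 control 1 the count of members called between the lines was 5 (RBM17, RBM18, RBM24, RBM47 and RBM4B), and leaving out other single libraries gave 6 to 10. RBM24, RBM4B and RBM47 kept their calls with any 1 library left out, with edgeR adjusted p-values of at most 0.00274, 0.0109 and 0.00229. RBM43 lost its call without MIA PaCa-2 control 1 or PANC-1 control 1 (up to 0.0669), RBM18 without PANC-1 control 4 (0.0526) and RBM34 without MIA PaCa-2 control 4 or PANC-1 control 1 (up to 0.0773). RBM27 lost it without MIA PaCa-2 control 1 or 4 or PANC-1 control 1 or 4 (up to 0.143), RBM17 without MIA PaCa-2 control 1 or 2 or PANC-1 control 2 or 4 (up to 0.0825), and RBM22 without MIA PaCa-2 control 2 or 4 or PANC-1 control 1 (up to 0.194). Of the partner genes, CIRBP was lower in PANC-1 (log2 fold change -1.13, edgeR adjusted p = 0.0124). ESRP2, an epithelial splicing regulator, was at 0.300 ± 0.102 CPM in MIA PaCa-2 and 29.4 ± 10.1 CPM in PANC-1 (SD, n = 3). Among the smallest p-values of the other lists, UPF1 (-0.70), XAB2 (-0.76), METTL3 (-0.45) and NONO (-0.43) were lower in PANC-1, and SNRNP25 (1.24), U2AF2 (0.91) and SRSF10 (0.86) were higher, all past the edgeR threshold.

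**Figure D4:**
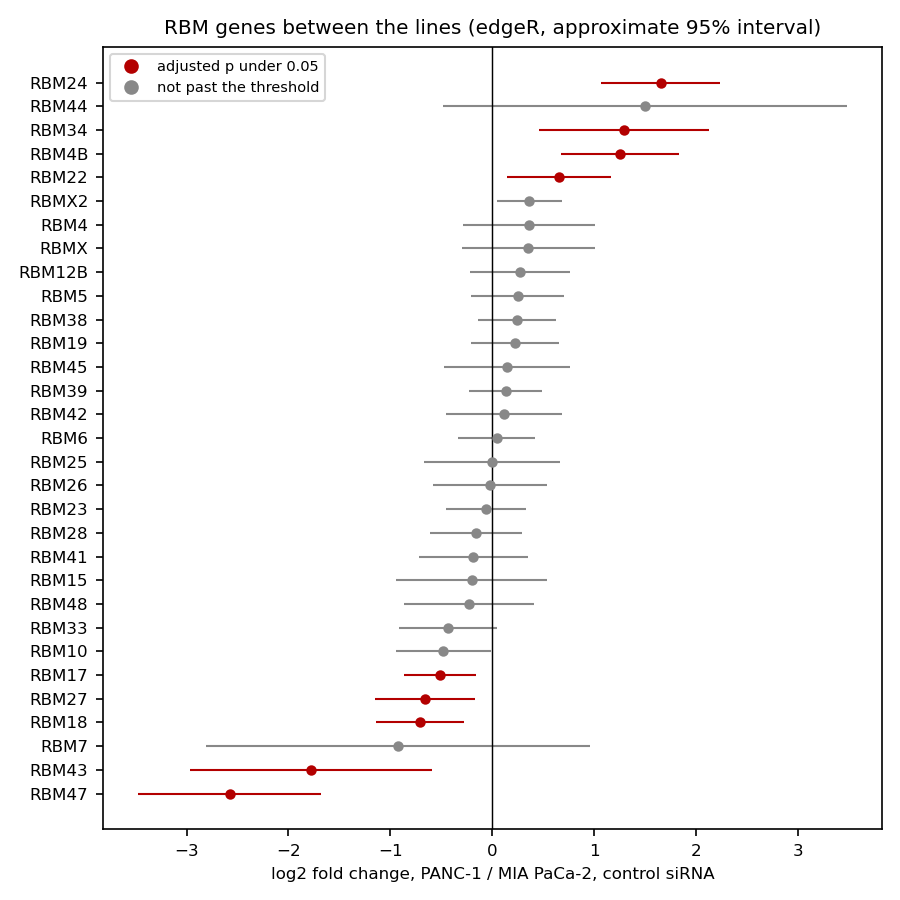
edgeR log2 fold change between PANC-1 and MIA PaCa-2 under control siRNA (x axis) with its approximate 95% interval for the 31 tested RBM genes, red where the adjusted p was under 0.05. The 9 red genes lie on both sides of 0, from RBM47 at -2.58 to RBM24 at 1.65.

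Among the PANC-1 libraries many members were high in the same pair. PANC-1 siRNA 2 was above the mean of its line for 26 of 31 members (46.8% of all genes) and PANC-1 control 1 for 23 of 31 (46.6%). Both stood above all 4 other PANC-1 libraries for 17 of 31 members, beside 19.7% of all genes, and below them for 3 members, RBM43, RBM44 and RBM47, beside 21.0%. RBM25 was at 220 and 258 CPM in this pair and between 106 and 156 CPM in the other 4 libraries. RBM15 was at 52.8 and 69.8 CPM against 28.7 to 35.7 CPM, and RBM48 at 19.7 and 19.4 CPM against 10.4 to 12.4 CPM. The pair holds 1 control and 1 siRNA library, and its part in the wide intervals of these genes was not tested.

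In MIA PaCa-2 the pattern was less uniform. Control 1 was above the mean of its line for 24 of 31 members (47.6% of all genes), and siRNA 1 for 21 (49.1%). RBM42 was at 178 CPM in control 2 and 168 CPM in siRNA 5, and between 82.0 and 110.4 CPM in the other 4 libraries. RBM10 was high in control 1, control 2 and siRNA 5, at 163, 162 and 182 CPM, and between 110.5 and 116 CPM in the others. For both genes the high libraries fall on both sides of the siRNA comparison.

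**Figure D5:**
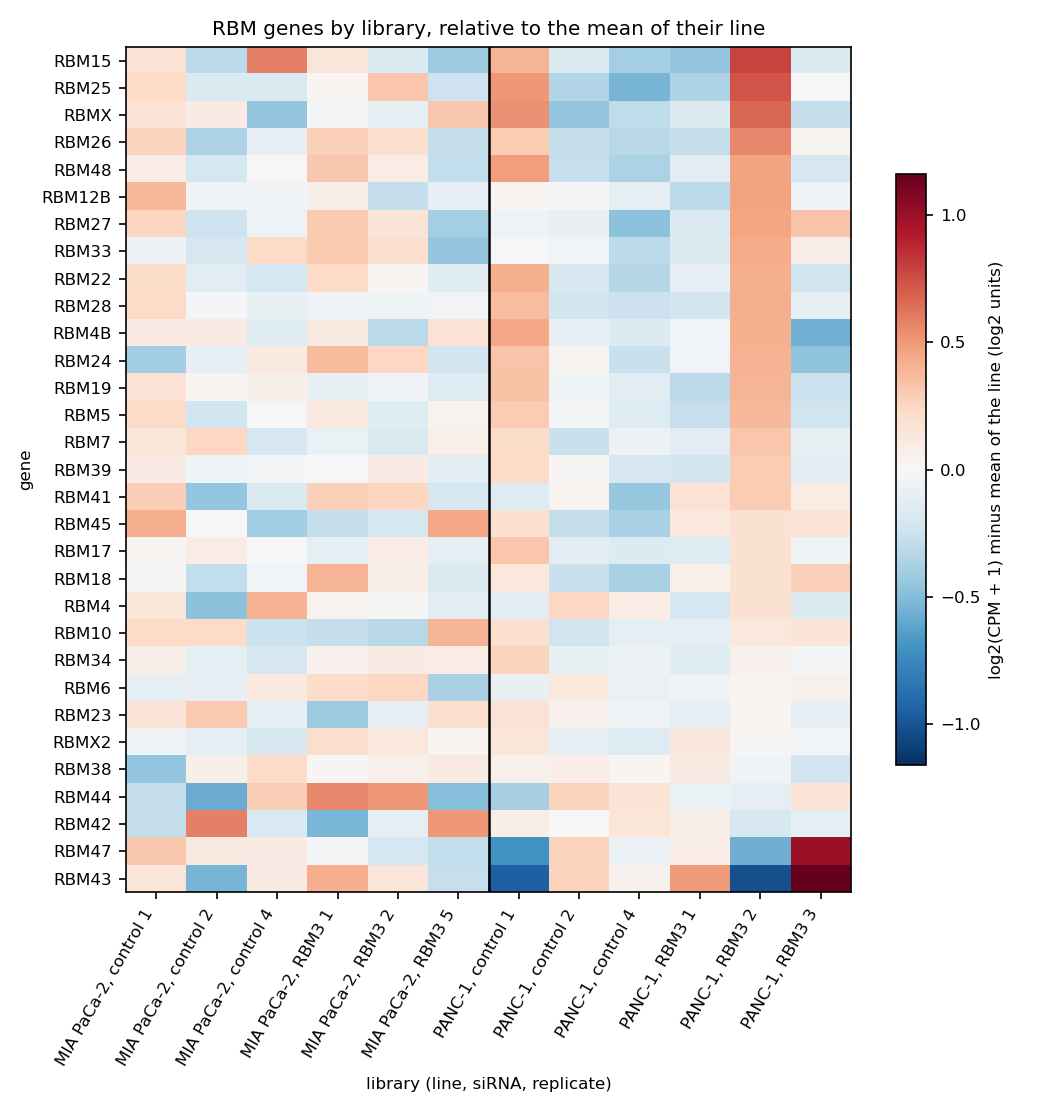
Deviation of log2(CPM + 1) from the mean of the line (colour, log2 units) for the 31 tested RBM genes (rows, ordered by their value in PANC-1 siRNA 2) in the 12 libraries (columns, MIA PaCa-2 left of the black line). PANC-1 control 1 and siRNA 2 are red for most genes and both blue for RBM43, RBM44 and RBM47. Of these, RBM43 and RBM47 are highest in PANC-1 siRNA 3.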

How the data were processed

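Raw read counts per Ensembl gene, deposited by the authors in 1 table, were used for 12 libraries. The submitters' processing notes name hg19/GRCh37 as the build, with STAR 2.5.2a, Picard, Subread and featureCounts. Members were found by symbol in the gene name table and by gene type, and 14 pseudogene rows that match the pattern were left out. No coordinates are given, since the reference annotation (GENCODE 29, GRCh38) is of another build. It served for exon length, overlap and mRNA sequence.

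edgeR 4.0.16 in R 4.3.3 tested 17862 genes with its quasi-likelihood F-test, two-sided (TMM, filterByExpr with a minimum count of 10, all 12 libraries in 1 model of 4 group means), with Benjamini-Hochberg adjustment over all genes at 0.05. The SE was taken from the F statistic as |log2 fold change|/sqrt(F), so the 95% intervals are approximate. They cover the spread between these libraries. DESeq2 1.42.0 and limma-voom 3.58.1 were alternatives, beside other scalings and filters, the replicate block and the removal of each library. The scripts were tested on simulated data. Libraries were compared in pairs, with a chi-square per degree of freedom from 11.7 to 501 over all pairs, so none was a copy of another.

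Named were RBM3, the 5 members with the smallest p in each siRNA comparison, 3 in the difference between lines, up to 5 called members per direction between the lines and the one with the smallest difference, RBMX, RBMXL1 and RBMX2, and the 3 highest and 3 lowest by RPKM. Of the partner lists, genes with an unadjusted p under 0.05 in a siRNA comparison were named. So were CIRBP and, between the lines, the gene with the smallest p of each list. Several partner genes have a log2 fold change alone. RBM19, RBM23 and the library examples (RBM10, RBM15, RBM25, RBM42, RBM48) were also chosen for sequence or for values already seen. The members and lists were chosen with earlier results of these data known.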

Additional observations from a re-analysis of the deposited data

How the results depend on the processing

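No RBM gene was called in MIA PaCa-2 or PANC-1 under any of 23 settings, nor for the difference between the lines under any of 22, which cover DESeq2, limma-voom, the scalings, the filters, the replicate block and the removal of each library. At an unadjusted p under 0.05, 3 members appeared under some setting in MIA PaCa-2 (RBM10, RBM23, RBM44), 4 in PANC-1 (RBM18, RBM27, RBM43, RBM47) and 1 for the difference (RBM47). Between the lines, removal of 1 library gave 5 to 10 called members in place of 9. Of 695 values of named genes under alternatives, 628 kept their direction and side of the threshold, 32 lost the call, 7 gained it and 28 changed sign, and the causes were not tested.

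The sign changes were in RBMX, RBM47 and RBM25. With single libraries left out, the log2 fold change of RBMX ran from -0.058 to 0.25 in MIA PaCa-2, from -0.23 to 0.51 in PANC-1, from -0.35 to 0.40 for the difference of responses and from -0.003 to 0.54 between the lines. That of RBM47 in PANC-1 ran from -0.11 to 0.84, and that of RBM25 between the lines from -0.38 to 0.19. For RBM25 between the lines, DESeq2 and median-of-ratios size factors both gave 0.04, the filter of 1 CPM in 6 libraries 0.022, and the 2 groups alone 0.011. Setting aside PANC-1 control 1 and PANC-1 siRNA 2, an alternative chosen after seeing the data, gave -0.005 for RBMX between the lines.

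Replicate numbers are shared by 2 pairs of libraries per line. The same-numbered libraries correlated at 0.246 and -0.138 in MIA PaCa-2 and at -0.489 and -0.462 in PANC-1. These are deviations from group means, which sum to 0 within a group. The correlations therefore cannot show whether same-numbered libraries share more than a number. MIA PaCa-2 siRNA 5 and PANC-1 siRNA 3 have numbers that no other library has, so the replicate block fits each of them alone. They then carry no weight in the comparisons, and a shift with the block cannot be told apart from the loss of these 2 libraries. The block also treats equal numbers in the 2 lines as the same block. With the replicate block, 0 members were called in either line and 9 between the lines. RBMX was then at -0.15 in MIA PaCa-2 and RBM47 at -0.11 in PANC-1, and RBM3 lost its MIA PaCa-2 call at a log2 fold change of -2.65 (adjusted p = 0.252). Low counts limit RBM7, RBM34 and RBM44, and the 8 members with few or no counts were not tested.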
